A study of Mus musculus with 45 samples.

Results

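Uninduced neural progenitors that carried reprogramming factors were compared with wild-type progenitors, all kept in NPC medium without doxycycline. The comparison used 8 of the 45 libraries of the series, 4 from carriers and 4 from wild type, taken by their genotype and medium labels. All 8 came from progenitors of the O4G line, mouse embryonic stem cells of R1 origin with a GFP reporter driven by the Oct4 promoter. The carriers had the genotype OKMS-Luciferase-AS or OKS-Luciferase-AS, were stably transfected, and served the series as its day 0. The wild-type cells had the genotype WT. NPC medium was N2B27 with EGF, FGF-2 and heparin, for every group.

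Each carrier genotype gave 1 library on R9 flow cells and 1 on R10 flow cells, and wild type gave 2 libraries on each (numbers 1 and 2 on R9, 2 and 3 on R10). For R9, poly(A)-enriched RNA was turned into cDNA and sequenced without amplification. For R10, cDNA from total RNA was amplified by PCR, so the flow cell, the RNA input and the amplification changed together and cannot be told apart. The labels do not say whether an R9 and an R10 library shared RNA, whether numbered libraries were separate cultures, or whether a carrier line was 1 clone. The p-values below therefore measure the spread between these libraries, which may be technical. Every comparison was made within a chemistry first, and a difference was kept as seen in both only when R9 and R10 showed it in the same direction.

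Reprogramming factors turn somatic cells into pluripotent cells: Oct4 (Pou5f1), Sox2 and Klf4 bind regulatory DNA of pluripotency genes, and Myc raises growth and ribosome production. In doxycycline systems the factors are meant to be silent until the drug is added, and transcription without the drug is called leak. Neural progenitors already express their own Sox2 and Myc, whereas Pou5f1 is silenced when stem cells leave pluripotency.

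The 4 R9 libraries held 592653 to 1032282 reads over genes and the 4 R10 libraries 1710327 to 3482423. In R10 both wild types, at 3146063 and 3482423 reads, were deeper than OKMS at 2274266 and OKS at 1710327, so depth went with group there. A value of 3 reads, the limit that a count of 0 allows, was worth 2.90 to 5.06 CPM in R9 and 0.861 to 1.75 CPM in R10 (counts scaled to the library total). The limit covers counting error only. The libraries carried the marks of their label. Fabp7, a fatty acid binding protein of radial glia, lay between 2624 and 5207 CPM, and Nes, the progenitor filament nestin, between 193 and 384 CPM. Sox1, another progenitor gene, was at 0 in all 8 libraries, as were the forebrain genes Emx1 and Otx2, while Emx2 and Lhx2, also of the forebrain, were at 4.45 to 14.0 and 7.75 to 25.6 CPM.

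Some wild-type libraries stood apart. Distances between libraries were taken as the root-mean-square difference of log2(CPM + 1) over 8960 genes with a mean of at least 10 CPM. In R9 the 2 wild-type libraries were the most distant pair, at 0.625, and the closest pair was wild type 2 with OKMS, at 0.477. In R10 the OKMS and OKS libraries were the closest pair, at 0.290, and 57 of the 8960 genes differed between them by at least 1. Wild type 2 of R10 was the far library, at 0.652 and 0.636 from the carriers and 0.480 from wild type 3, which itself lay at 0.496 and 0.486 from the carriers.

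**Figure D1:**
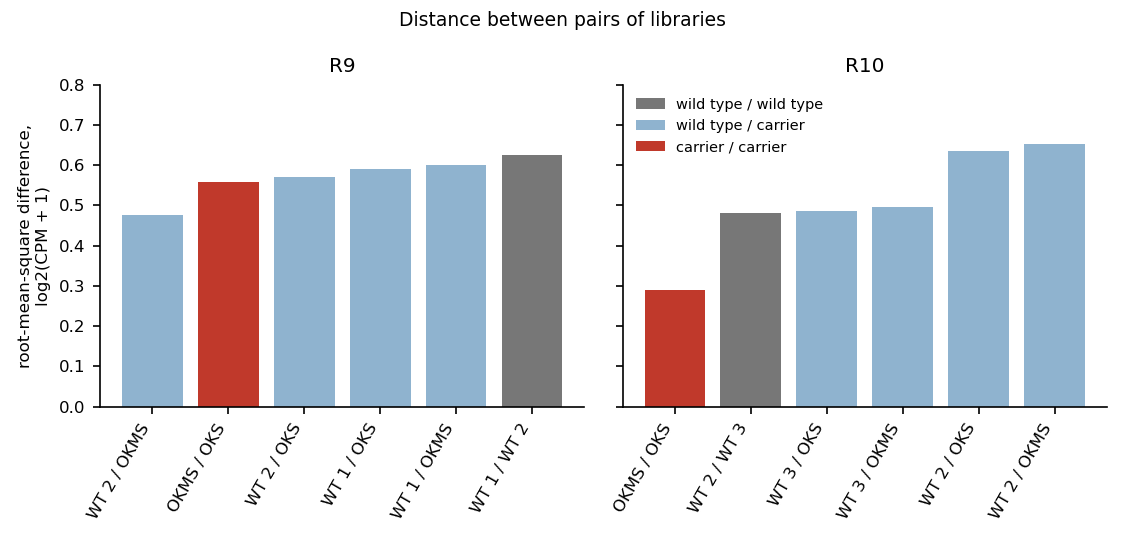
Root-mean-square difference in log2(CPM + 1) over 8960 genes for each of the 6 pairs of libraries in R9 (left) and R10 (right), with bars coloured by whether a pair is 2 wild-type libraries, 1 of each, or 2 carriers. In R9 the wild-type pair is the most distant, at 0.625, and in R10 the carrier pair is the closest, at 0.290.

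The genes behind the distance of R10 wild type 2 were chosen after their values were seen, from the largest differences between wild-type libraries. Gstp1, a glutathione transferase, was at 26.0 CPM in R10 wild type 2 and at 850 CPM in wild type 3. The carriers held 674 CPM of Gstp1 in OKMS and 655 CPM in OKS, and the 4 R9 libraries 487 to 1018 CPM. Mmp2, a matrix metalloproteinase, was at 8.26 CPM in R10 wild type 2 against 149 CPM in wild type 3, 181 CPM in OKMS and 176 CPM in OKS. The R9 libraries held 111 to 258 CPM of Mmp2, so for both genes R10 wild type 2 was the only one of the 8 libraries below the rest by several fold. The same number was low for Gstp1 at day 2 in R10, with 13.3 CPM in wild type 2 against 358 CPM in wild type 3. In R9 number 2 was not low, with 1018 CPM of Gstp1 in NPC medium and 255 CPM on day 2. In R9 the library apart was wild type 1, in which Col3a1, a fibrillar collagen, was at 116 CPM against 3.87 CPM in wild type 2, and Igf2r, the imprinted mannose 6-phosphate receptor, at 116 CPM against 610 CPM. The main counts below are given with and without these libraries where leaving them out moved a count by over 1.5 times.

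Leak was read first from the factor genes themselves. Their values do not separate the cell's own transcripts from those of the introduced factors. The sequence of the introduced construct was not used, so how its reads were counted is not known. Pou5f1 (chromosome 17, 35506018 to 35510772, mm10) was at 1.34 and 3.87 CPM in the R9 wild-type libraries, 0 in R9 OKMS and 1.69 CPM in R9 OKS. In R10 it was at 0.953 and 0 CPM in wild type and at 3.51 CPM in OKMS and 2.92 CPM in OKS. These values stood for 1, 4, 0 and 1 reads in R9 and 3, 0, 8 and 5 reads in R10. Carriers lay above wild type in R10 and not in R9, where OKMS was the lowest library.

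On the log2(CPM + 1) scale the Pou5f1 difference between carriers and wild type was -1.04 in R9 and 1.59 in R10. With both chemistries in 1 limma fit, which averages these opposite values, it was 0.27 (95% confidence interval -0.998 to 1.55, unadjusted p = 0.650, adjusted p = 0.932). The direction of the joint difference turned when R10 wild type 3 or R10 OKMS was left out. For scale, on day 2 with doxycycline Pou5f1 reached 52.0 CPM in OKMS and 62.8 CPM in OKS on R9, and 126 and 141 CPM on R10. Wild-type cells in the same day-2 medium held 1.17 to 1.41 CPM, and embryonic stem cells 856 to 1402 CPM. Uninduced carriers were thus no higher than the highest wild type in R9 and held at most 3.51 CPM in R10.

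Klf4, the Krüppel-like factor of the set, came nearest to a difference. It was at 2.67 and 3.87 CPM in R9 wild type, 4.04 CPM in R9 OKMS and 5.06 CPM in R9 OKS. In R10 it was at 0.953 and 0.287 CPM in wild type (3 and 1 reads), 5.27 CPM in OKMS (12 reads) and 5.26 CPM in OKS (9 reads). In CPM the groups did not overlap, but in R9 the values stood for 2 and 4 reads in wild type and 3 and 3 in carriers, so the reads overlapped and lay near the limit of 3. The difference was 0.38 in R9 and 1.98 in R10. The joint difference was 1.18 (interval 0.27 to 2.10, unadjusted p = 0.0149), and limma's adjusted p of 0.529 did not pass. Day-2 carriers held 50.8 to 141 CPM of Klf4.

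Sox2 and Myc, which progenitors make themselves, were not higher in carriers. Sox2 was at 56.2 and 72.6 CPM in R9 wild type against 40.4 and 47.2 CPM in the carriers, and at 39.1 and 35.9 CPM in R10 wild type against 40.9 and 31.5 CPM. Myc was at 104 and 136 CPM in R9 wild type against 104 CPM in OKMS and 75.9 CPM in OKS. In R10 Myc was at 211 and 138 CPM in wild type against 140 and 156 CPM. The joint differences were -0.30 for Sox2 (interval -0.71 to 0.11) and -0.31 for Myc (interval -0.68 to 0.06). For Sox2 a rise of more than 0.11 was thus outside the interval as an average of the chemistries, with differences of -0.54 in R9 and -0.06 in R10. It sets no bound for R10 alone, where OKMS at 40.9 CPM lay above both wild types. The Myc interval pools OKMS with OKS, so it sets no bound on a rise in OKMS alone. OKMS minus wild type was -0.24 for Myc over 2 OKMS libraries, without an interval. Myc, the factor in OKMS and not in OKS by name, differed between OKMS and OKS by 0.15 (standard error 0.26, unadjusted p = 0.584).

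**Figure D2:**
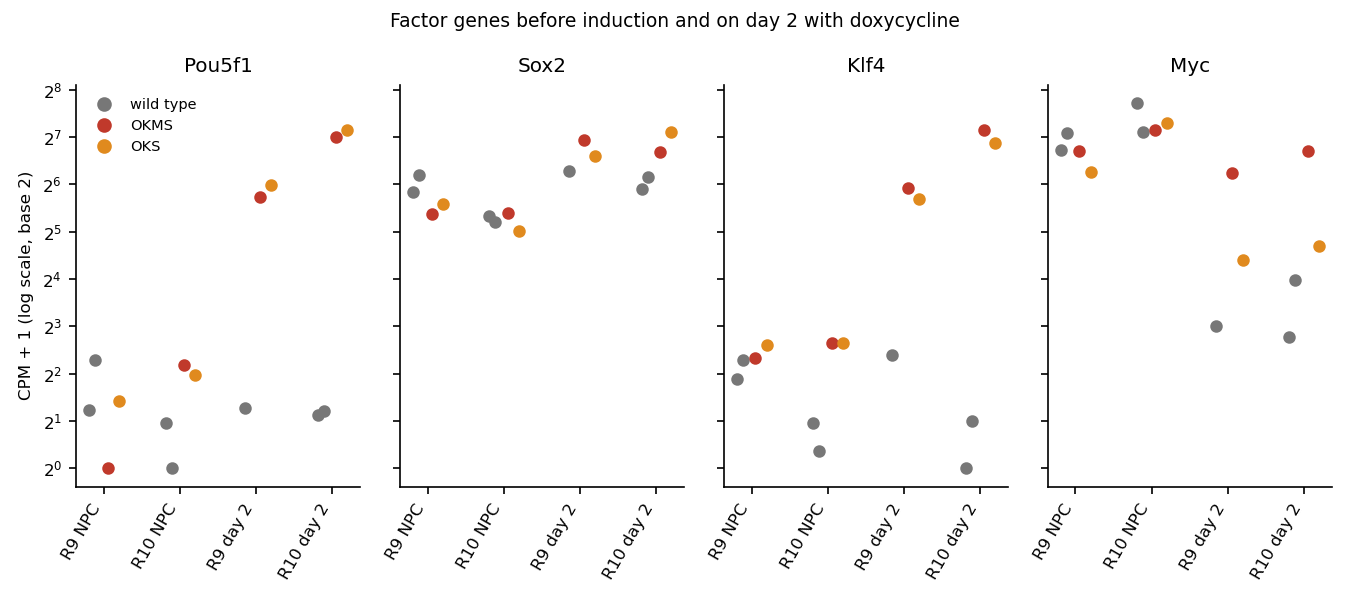
Levels of the 4 factor genes (CPM + 1, log axis of base 2) in each uninduced progenitor library and each day-2 library with doxycycline, 1 point per library, for wild type, OKMS and OKS. Before induction Pou5f1 stays at or under 3.87 CPM in all 8 progenitor libraries, against 52.0 to 141 CPM in the carriers of day 2.

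The pluripotency genes that the factors act on were also low. Of 24 such genes in the table, Dppa2 and Lin28a were at 0 in all 8 libraries and 5 had enough reads to be tested. Their summed level was 21.4 and 31.0 CPM in R9 wild type, 22.9 CPM in R9 OKMS and 43.8 CPM in R9 OKS. In R10 it was 25.4 and 30.4 CPM in wild type, 28.6 CPM in OKMS and 45.0 CPM in OKS. OKS was the highest library in each chemistry and OKMS lay among the wild types. On day 2 the carriers held 163 to 187 CPM, wild type in the same medium 119 CPM in R9 and 41.9 and 65.2 CPM in R10, and stem cells 12838 to 15592 CPM. No pluripotency gene passed the test, and 0 of 5 reached an unadjusted p under 0.05, against 1148 of all 13647 genes, which for so few genes says little.

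Fetub and Apela were both high in day-2 carriers. Fetub, a secreted protease inhibitor, was at 0 reads in both R10 wild-type libraries and at 8.79 CPM in R10 OKMS (20 reads) and 4.67 CPM in R10 OKS (8 reads), which limma called in R10 (adjusted p = 0.0220). Fetub passed the filter on low values only through the carriers, so its test supports nothing further. It lost the call without wild type 2 (adjusted p = 0.0740). In R9 the order was opposite: 1.34 and 0.968 CPM in wild type (1 read each) and 0 in both carriers. Apela, a peptide hormone of stem cells, was at 5.84 CPM in R10 OKS (10 reads) and at 0.879 CPM or less in the other R10 libraries. In R9 Apela was at 0 and 1.94 CPM in wild type, 1.35 CPM in OKMS and 0 in OKS, so OKS was not the high library there. On day 2 the carriers held 132 to 319 CPM of Fetub and 28.1 to 79.1 CPM of Apela.

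Across all genes, differences between carriers and wild type seldom appeared in both chemistries. In R9 limma called 0 of 14014 genes (0%) at an adjusted p under 0.05 and a difference of at least 1, with 396 genes at an unadjusted p under 0.05, beside 3 calls by edgeR (0.0214%) and 0 by DESeq2 from recovered read counts. In R10 it called 212 of 14017 genes (1.51%), 200 higher (1.43%) and 12 lower (0.0856%) in carriers, beside 151 by edgeR (1.08%) and 184 by DESeq2 (1.31%). In the fit over both chemistries limma called 0 of 13647 genes (0%), with 1148 at an unadjusted p under 0.05, while edgeR called 2 (0.0147%) and DESeq2 14 (0.103%). The R9 count was 6 without wild type 1, 63 without wild type 2, 3 without OKMS and 1 without OKS, and the joint count was 37 without R9 wild type 2, which leaves R9 wild type 1 as the only R9 reference. In each of those fits the lone library is assumed to vary like the others. The R10 count was 39 with quantile normalization, 134 without wild type 2 and 573 without wild type 3.

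Agreement of the chemistries was then described without a test. A difference of at least 1 in the same direction, with no overlap between groups in either chemistry, was met by 60 of 13647 genes (0.44%), 50 higher (0.366%) and 10 lower (0.0733%). The same rule with opposite directions was met by 46 genes (0.337%). By size alone, R9 had 3.39% of genes at least 1 higher and 4.53% at least 1 lower in carriers, and R10 had 6.27% and 1.5%. With no overlap required as well, R9 had 813 such genes (5.96%) and R10 1011 (7.41%). The same-direction count was 93 without R9 wild type 1, 130 without R9 wild type 2, 114 without R9 OKMS and 104 without R10 wild type 3, 121 with a pseudocount of 0.25 and 22 with a minimum of 5 CPM. The opposite-direction count under the same settings was 62, 112, 87, 63, 81 and 16. Without R9 OKS the opposite-direction genes were the more numerous, 95 against 80. None of the 60 had a limma adjusted p under 0.05 over both chemistries, where the smallest was 0.243. By edgeR 2 of them passed, Lsamp and an antisense gene at Srsf6, and by DESeq2 7 passed. The genes named below were picked after their values were seen.

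Lsamp had the smallest p-value of all genes in limma's fit over both chemistries. It encodes a membrane-anchored adhesion protein of the IgLON family and lies on chromosome 16, 39984361 to 42181679. Its level was 34.8 and 32.9 CPM in R9 wild type, 66.0 CPM in R9 OKMS and 84.3 CPM in R9 OKS. In R10 it was 10.2 and 15.8 CPM in wild type, 40.4 CPM in OKMS and 38.0 CPM in OKS. All carriers lay above all wild types of their chemistry, by 1.12 in R9 and 1.55 in R10. The joint difference was 1.34 ± 0.21 (standard error, 4 libraries against 4; limma unadjusted p = 1.78e-05, adjusted p = 0.243). EdgeR gave an adjusted p of 0.0417 and DESeq2 of 0.000338 on the recovered reads. Its IgLON relative Opcml was at 0 and 0.968 CPM in R9 wild type against 4.04 and 8.43 CPM in carriers, and at 2.86 and 4.30 CPM in R10 wild type against 10.5 and 9.35 CPM (joint difference 1.78, adjusted p = 0.406).

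Fos, an immediate-early transcription factor, had the largest joint difference of the annotated genes among the 60 after Prss35. It was at 5.35 and 7.74 CPM in R9 wild type, 13.5 CPM in R9 OKMS and 60.7 CPM in R9 OKS. In R10 it was at 3.81 and 2.01 CPM in wild type, 13.2 CPM in OKMS and 33.9 CPM in OKS. The joint difference was 2.28 ± 0.45 (adjusted p = 0.394 by limma, 0.000274 by DESeq2). OKS exceeded OKMS in both chemistries, by 1.70 ± 0.45 over both (unadjusted p = 0.00248), which did not pass over all genes. Egr1, another immediate-early gene, overlapped between groups, with 68.2 and 32.9 CPM in R9 wild type against 51.2 and 60.7 CPM, and a joint difference of 0.35 (interval -0.22 to 0.91). The Fos call in R10 (adjusted p = 0.0370) was lost without any one of wild type 2, wild type 3 or OKS, at adjusted p-values of 0.0797 to 0.0942.

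Arap2, a GTPase-activating protein for Arf proteins, was at 20.1 and 33.9 CPM in R9 wild type against 43.1 and 65.8 CPM in carriers, and at 20.3 and 18.1 CPM in R10 wild type against 41.7 and 43.8 CPM. The groups did not overlap in either chemistry. The joint difference was 1.06 ± 0.22, which DESeq2 passed (adjusted p = 0.0292) and edgeR and limma did not (adjusted p = 0.122 and 0.394). Without R9 wild type 2 limma also passed it, at an adjusted p of 0.0441. Among other genes, DESeq2 passed Limch1, Pex7, Dnah14, Ifitm3, the pseudogenes Gm6807 and Prdx2-ps1, and, lower in carriers, the noncoding Gm26917.

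Fewer reads stood behind other genes of the 60. Casp12, an inflammatory caspase, was at 5.35 and 7.74 CPM in R9 wild type against 14.8 and 18.6 CPM, and at 0 and 2.58 CPM in R10 wild type against 8.35 and 8.76 CPM. Gulp1, an adaptor for engulfment of apoptotic cells, was at 2.67 and 8.71 CPM in R9 wild type against 16.2 and 15.2 CPM, and at 1.27 and 8.03 CPM in R10 wild type against 11.9 and 15.8 CPM. Prss35, a serine protease-like protein, was at 0 in both R9 wild types and at 5.38 and 5.06 CPM in the carriers, and at 0 and 0.287 CPM in R10 wild type against 2.64 and 4.09 CPM. Prss35 passed the filter on low values only through the carriers, as did other genes of the 60, among them Rpl38-ps1, Gm15464 and Gm43848. The wild-type libraries of Gulp1 themselves spread by several fold in each chemistry.

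The 10 genes that were lower in carriers were all scarce, with none above 12.1 CPM in any of the 8 libraries. Hoxb3, a hindbrain and spinal cord patterning gene, was at 2.67 and 2.90 CPM in R9 wild type against 1.35 and 0 CPM, and at 7.94 and 1.72 CPM in R10 wild type against 0.439 and 0 CPM. Muc1, a cell-surface mucin, was at 2.67 and 1.94 CPM in R9 wild type and 1.91 and 1.43 CPM in R10 wild type, and at 0 in all 4 carriers, so it passed the filter only through wild type. Camkv, a kinase-like vesicle protein of neurons, was at 4.01 and 0.968 CPM in R9 wild type against 0 and 0 CPM, and at 10.2 and 2.87 CPM in R10 wild type against 0.879 and 2.34 CPM. For all 3 the R9 levels were 3 reads or fewer per library, so a difference there is at the limit of the depth. The remaining 7 were Smpd3, Smtnl2, Rsph9, Usp44, Cacna1c, Zfp133-ps and Gm11650. The neighbours Hoxb2 and Hoxb4 had joint differences of -1.23 and -1.31 (unadjusted p = 0.0434 and 0.0406, adjusted p = 0.593 and 0.585). In R10 these rest on wild type 2, at 17.8 CPM of Hoxb2 and 14.0 CPM of Hoxb4 against 4.30 and 0.861 CPM in wild type 3, and the Hoxb2 levels of the carriers, 7.03 and 7.01 CPM, lay above wild type 3. Hoxa2, Hoxa3 and Hoxa5 had -0.49, 0.42 and 0.24.

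**Figure D3:**
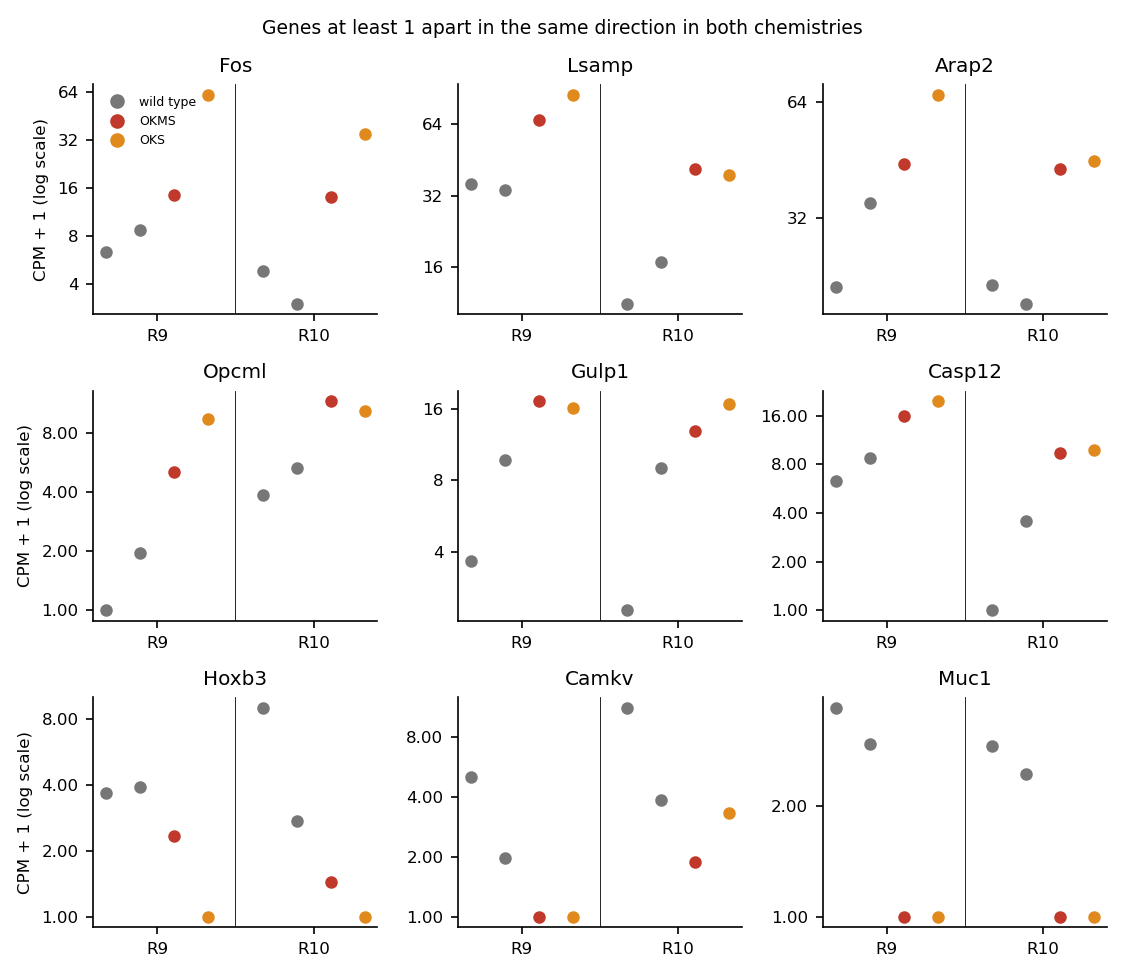
Levels of 9 genes (CPM + 1, log axis) in the 4 R9 and 4 R10 libraries, 1 point per library, coloured by wild type, OKMS and OKS. Fos, Lsamp, Arap2, Opcml, Gulp1 and Casp12 lie higher in every carrier of a chemistry than in every wild type, and Hoxb3, Camkv and Muc1 lie lower. No gene passed limma's test over both chemistries.

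Antisense genes were part of the 60. The antisense gene at Srsf6, a splicing factor locus, was at 6.69 and 7.74 CPM in R9 wild type against 17.5 and 20.2 CPM, and at 4.76 and 1.15 CPM in R10 wild type against 61.9 and 63.1 CPM. The antisense genes at Nptx1 and Adam10 had joint differences of 1.59 ± 0.30 and 1.72 ± 0.34. Whether reads were counted by strand is not given in the sources used here, so reads of these loci may belong to the sense gene. Promoter windows of 26 of the 60 genes were found in RefSeq (GRCm38.p6). The octamer letters ATGCAAA, on either strand, were in 1 of the 26 (3.85%), that of Tspan8, and in 4.63% of all 32851 windows. The SOX letters ACAATGG were in 0 of the 26 and in 3.66% of all windows. The KLF letters GGGTGTG were in 0 of the 26 and in 7.95% of all windows. The E-box CACGTG, a MYC site, was in 0 of the 26 and in 7.15% of all windows, and these letters say nothing of binding.

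Gene lists for the cell types and pathways of these cells gave 0 calls over both chemistries, as did all genes (0%), so lists are described by counts and medians. The median joint difference of all 13647 genes was 0.02. The 18 tested neural progenitor genes had a median of 0.07, and 2 of them, Cdh2 and Notch1, had an unadjusted p under 0.05, as had 1148 of all 13647 genes. In R10 alone Hes1 and Pou3f2 of this list were called higher, 2 of 18 against 1.43% of all genes (adjusted p = 0.00318 and 0.0297), with R9 differences of -0.37 and -0.19. Fabp7 differed by -0.01 (interval -0.41 to 0.39) and Nes by 0.02 (interval -0.35 to 0.39). The 20 cell cycle genes had a median of -0.07, with Mki67 at -0.05 and Top2a at -0.10. The 20 MYC target genes had a median of -0.07, with the nucleolar proteins Ncl at -0.03 and Npm1 at 0.01. The 2 of that list with an unadjusted p under 0.05, a share near that of all genes, were Eno1, a glycolytic enolase, at -0.61 and Rrp9, of ribosomal RNA processing, at -0.40. For Fabp7, Nes, Mki67 and Top2a a difference of 1 lay outside the interval.

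Interferon-stimulated genes had one of the higher medians, 0.46 over 13 tested genes, with 0.49 in R9 and 0.41 in R10. Ifi27, an interferon-induced mitochondrial protein, was at 46.8 and 109 CPM in R9 wild type against 124 and 150 CPM, and at 43.2 and 70.6 CPM in R10 wild type against 111 and 94.1 CPM. Its joint difference was 0.90 (interval 0.39 to 1.41, adjusted p = 0.478). Ifitm3, a membrane protein that blocks virus entry, was at 36.1 and 24.2 CPM in R9 wild type against 43.1 and 55.6 CPM, and at 4.76 and 14.6 CPM in R10 wild type against 36.5 and 53.7 CPM. B2m, the most abundant gene of the list, differed by 0.14 (interval -0.11 to 0.40). Both low values of R10 wild type 2 in Ifi27 and Ifitm3 belong to the library that stood apart. The low R9 value of Ifi27, 46.8 CPM, likewise belongs to wild type 1, the library apart in R9, where Ifitm3 was not low. The part of these libraries in the result was not tested.

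Among the other lists, 18 extracellular matrix genes had a median of 0.31, and Lamc1, Sparc, Vcan, Thbs1 and Ncam1 had higher values in carriers at an unadjusted p under 0.05. The same threshold was met upwards by 797 of all 13647 genes, and none of the 5 passed after adjustment. The astrocyte list had a median of -0.39 in R9, 0.14 in R10 and 0.30 jointly over 11 genes, with members on both sides, S100b at 1.07 (unadjusted p = 0.00572) and Gfap at -1.02 (unadjusted p = 0.0196). Neuron genes had medians of -0.58 in R9 and 0.36 in R10 over 6 genes, and regional patterning genes -0.49 and 0.11 over 16. Oligodendrocyte lineage genes had -0.02 and 0.23 over 7, and mesenchymal genes 0.15 and 1.70 over 9. The wild-type libraries that stood apart differed in the mesenchymal genes Dcn and Lum. In R10 these were at 0.953 and 0.318 CPM in wild type 2 against 9.18 and 4.30 CPM in wild type 3, with both carriers higher still. In R9 wild type 1 was the highest library for both, at 22.7 and 54.8 CPM. The part of these libraries in the medians was not tested. Col3a1 in that list was at 5.399 and 14.6 CPM in R10 wild type against 36.9 and 81.2 CPM, and at 116 and 3.87 CPM in R9 wild type against 1.35 and 16.9 CPM. In bulk RNA a different share of such cells and a different level per cell cannot be told apart. Of the 3 microglia genes in the table, Csf1r and Tyrobp were at 0 in all 8 libraries. The third, P2ry12, was at 0 and 2.90 CPM in R9 wild type against 2.69 and 1.69 CPM, and at 0.953 and 1.43 CPM in R10 wild type against 5.71 and 5.26 CPM (joint difference 1.12, interval 0.10 to 2.14, unadjusted p = 0.0338, adjusted p = 0.568).

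The calls of R10 were a different matter. The 200 genes called higher there had a median difference of 1.64 in R10 and 0.02 in R9, and in R9 105 of the 196 tested (53.6%) had the same sign, against 51.4% of all genes tested in R10. In R9 7 of the 196 were at least 1 higher, a share near the 3.39% of all genes. The difference between the chemistries was tested directly as an interaction, and limma found 27 of 13647 genes (0.198%) at an adjusted p under 0.05, 25 with the larger value in R10 (0.183%) and 2 with the smaller (0.0147%), with no threshold on its size. The count was 43 without R9 wild type 1, 11 without R9 OKMS, 12 without R9 OKS, 16 without R10 wild type 2, 10 without R10 OKMS and 11 without R10 OKS.

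**Figure D4:**
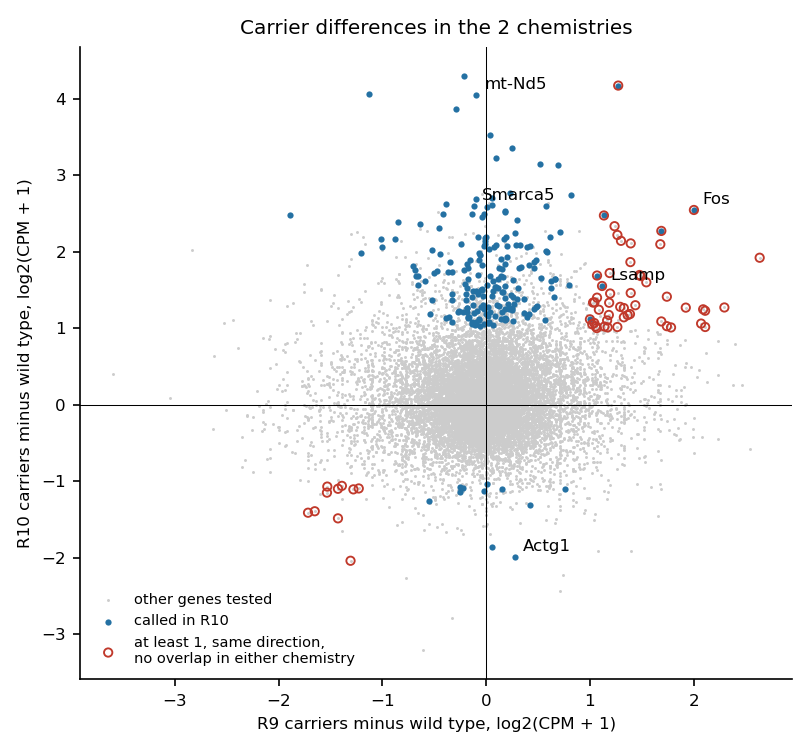
Carrier minus wild-type difference in log2(CPM + 1) for each of 13647 genes, R9 on the x axis and R10 on the y axis. Blue points are genes called in R10, which spread along the y axis around 0 in R9, and red circles are the 60 genes at least 1 apart in the same direction with no overlap in either chemistry.

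Mitochondrial transcripts led this set. Mt-Nd5, a subunit of respiratory complex I encoded at M, 11742 to 13565, was at 27.0 and 12.3 CPM in R10 wild type against 296 and 343 CPM in R10 carriers. In R9 mt-Nd5 was at 356 and 654 CPM in wild type and 533 and 383 CPM in carriers. The R10 difference was 4.05 ± 0.31 (adjusted p = 0.000834) and the interaction 4.14 (adjusted p = 0.00391). All R10 libraries lay below all R9 libraries for this gene, the wild types by far more than the carriers. Over the 200 genes called higher, the R9 mean was nearer to the R10 carriers for 124 (62%), against 56.4% of all genes tested in R10.

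Other mitochondrial genes were higher in R10 carriers too, but stood differently to R9. Mt-Co1, of the terminal oxidase, was at 7.30 and 4.02 CPM in R10 wild type against 92.7 and 94.6 CPM, all below its R9 levels of 543 to 823 CPM. Mt-Rnr2, the large ribosomal RNA, was at 492 and 321 CPM against 3773 and 3697 CPM, and there the R10 carriers lay above the R9 levels of 455 to 594 CPM. Over the 9 tested genes of the mitochondrial genome the median was 2.69 in R10, with 7 called higher (1.43% of all genes), and -0.09 in R9, with 0 called (0% of all genes). Reads of mitochondrial genes made up 0.273% and 0.153% of the R10 wild-type libraries, 1.08% and 1.12% of the R10 carriers, and 0.493% to 0.884% of the R9 libraries. This share moved with the R10 calls and its part in them was not tested, and without the mitochondrial genes R10 called 210 genes. The share also differed within a line. R10 stem cells of the R1 line held 0.124% in the unnumbered library and 2.27% and 2.34% in the numbered ones. Genotype and library preparation may coincide in the R10 progenitors and cannot be told apart here.

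Nuclear genes with the same behaviour included chromatin and RNA helicases. Smarca5, an ATPase that slides nucleosomes, was at 10.2 and 13.2 CPM in R10 wild type against 80.8 and 69.5 CPM, and at 206 and 239 CPM in R9 wild type against 171 and 245 CPM. Dhx36, a helicase that unwinds G-quadruplexes, was at 9.85 and 14.3 CPM in R10 wild type against 71.6 and 72.4 CPM, and at 89.6 and 118 CPM in R9 wild type against 92.9 and 111 CPM. Hes1, a Notch target and repressor of neuronal genes, was at 48.0 and 56.2 CPM in R10 wild type against 199 and 154 CPM, and at 130 and 129 CPM in R9 wild type against 78.1 and 128 CPM. Other Notch targets differed less, and Hes5, Hey1 and Nrarp had R10 differences of 0.19, 0.18 and -0.40. Top2b, a DNA topoisomerase, Dpy19l1, a mannosyltransferase, and Ssr3, of the endoplasmic reticulum translocon, also passed both the R10 test and the interaction. Dpy19l1 was at 29.5 and 29.8 CPM in R10 wild type against 214 and 185 CPM, with R9 between at 78.9 to 94.9 CPM. Ssr3 was likewise on both sides of R9, at 229 and 257 CPM in R10 wild type against 1268 and 1338 CPM, with 401 to 675 CPM in R9.

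Of the 12 genes called lower in R10, Actg1, the cytoplasmic gamma actin (chromosome 11, 120345690 to 120348542), was the clearest. It was at 1469 and 1504 CPM in R10 wild type against 349 and 396 CPM in R10 carriers. In R9 it was at 1197 and 1533 CPM in wild type against 1863 and 1445 CPM. The R10 difference was -1.997 ± 0.12 (adjusted p = 0.000327) and the interaction -2.27 (adjusted p = 0.00391). Its partner Actb, the beta actin, was at 3883 and 4123 CPM in R10 wild type against 3861 and 3539 CPM. Pgam1 of glycolysis, at 207 and 160 CPM against 36.5 and 67.2 CPM, and Fasn, the fatty acid synthase, at 873 and 706 CPM against 365 and 364 CPM, were also lower in R10. The R9 differences of Pgam1 and Fasn were 0.06 and 0.76.

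Transcript composition ran along with these calls. The longest annotated transcripts of the genes called higher in R10 had a median GC content of 44.4% (174 of 200 genes had a value), those called lower 55.9% (11 of 12), and genes tested and not called 49.6%. The stretches below are examples from genes picked after their values were seen, and they do not measure that difference. They are the 60 bases at the middle of the coding sequence of 2 genes called higher and 1 called lower in R10, from GENCODE M21, with G and C in capitals.
mt-Nd5: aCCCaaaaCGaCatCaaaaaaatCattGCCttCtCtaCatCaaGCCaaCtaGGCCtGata
Dhx36: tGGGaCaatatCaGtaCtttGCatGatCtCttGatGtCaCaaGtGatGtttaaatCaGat
Fasn: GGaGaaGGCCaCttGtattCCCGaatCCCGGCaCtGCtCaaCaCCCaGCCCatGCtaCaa
In these stretches 24 and 21 of the 60 bases were G or C for mt-Nd5 and Dhx36, and 34 for Fasn.

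Over all genes with a value the pattern was graded. Genes were split by GC into 5 bins of like size. In the bin with the lowest GC (31.0% to 43.9%), the median R10 difference was 0.26, with 0.27 in OKMS and 0.27 in OKS, and 3.38% of genes were called. In the bin with the highest GC it was -0.10, and 0.919% were called. In R9 the medians of the 5 bins lay between -0.03 and 0.00. With the GC trend of each library taken out, an alternative added after the data were seen, R10 called 105 of the 12570 genes with a GC value. Of the 212 called before, only 174 of the 200 higher and 11 of the 12 lower had such a value and could be called, and 97 and 5 of them were. The R10 difference was then 2.55 for Fos, as before, and 1.35 for Lsamp, from 1.55, and neither passed (adjusted p = 0.0503 and 0.0692), while mt-Nd5 and Actg1 kept theirs (0.00167 and 0.00125). On day 2 the R10 carriers showed the same grading against the day-2 wild types, from 0.38 in the lowest bin to -0.14 in the highest. In R9 the day-2 medians, against a lone wild-type library, ran from 0.00 to -0.11. The cause of the grading was not tested.

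**Figure D5:**
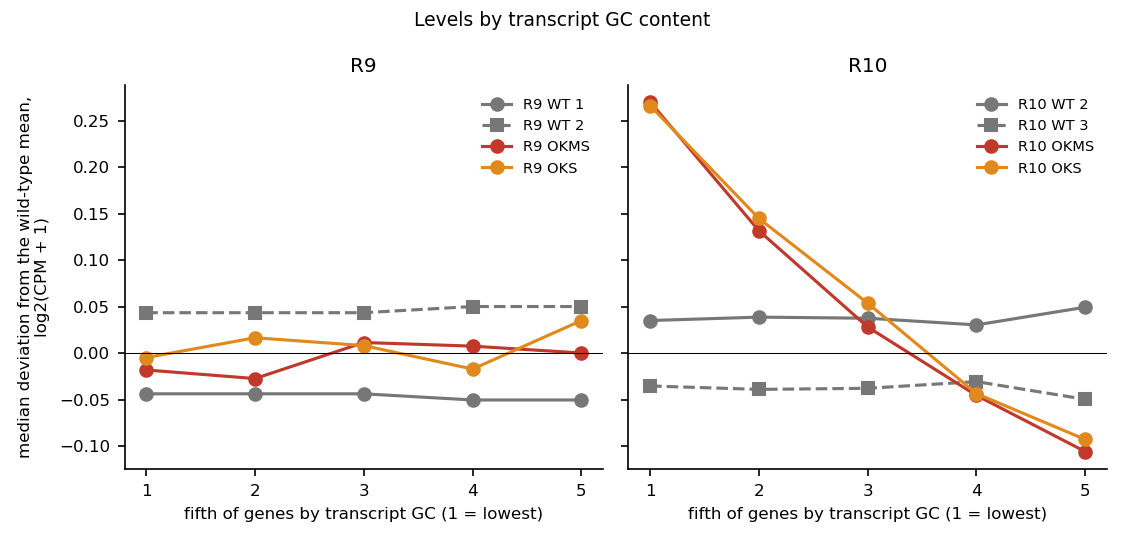
Median deviation from the wild-type mean of the same chemistry in log2(CPM + 1) for 5 groups of genes ordered by transcript GC content, 1 line per library, R9 left and R10 right. The 2 R10 carriers run from 0.27 in the lowest bin to -0.11 and -0.09 in the highest, and the other 6 libraries are nearly flat.

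Pseudogenes were frequent among the R10 calls: 34 of 548 tested processed pseudogenes (6.20%) were called higher, against 136 of 11230 protein-coding genes (1.21%). Pcna-ps2, a processed copy of the replication clamp gene Pcna, was at 3.49 and 6.03 CPM in R10 wild type against 37.3 and 26.3 CPM, and at 73.6 and 47.4 CPM in R9 wild type against 72.7 and 62.4 CPM. Its parent Pcna was at 26.4 and 34.4 CPM in R10 wild type against 33.8 and 33.3 CPM. The copy matched 775 of 781 aligned bases of the Pcna coding sequence (99.2%) with no gap, so reads of one can be placed on the other and both values are uncertain. The stretch of 60 bases with the most differences is shown for each, with the 2 differing bases in capitals.
Pcna: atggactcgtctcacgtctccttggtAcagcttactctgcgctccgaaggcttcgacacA
Pcna-ps2: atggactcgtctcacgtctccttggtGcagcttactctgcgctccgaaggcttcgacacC
Antisense genes were also called more often (21 of 603, 3.48%), and 7 of the 21 lay opposite mitochondrial genes.

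The R10 calls recurred in the same chemistry 2 days later, and so did the split in mitochondrial reads. These made up 0.319% and 0.165% of the day-2 R10 wild types against 1.51% in OKMS and 1.64% in OKS. Genotype and library preparation may coincide in R10 at both times, so the recurrence does not tell them apart. Of the 200 genes called higher before induction, 157 (78.5%) were at least 1 higher in the day-2 R10 carriers than in the day-2 R10 wild types, against 15.0% of all tested genes. Their median day-2 difference was 1.74 in R10 and -0.03 in R9, where day 2 had a lone wild-type library. Mt-Nd5 differed by 4.42 on day 2 in R10 and by -0.05 in R9, and Dhx36 by 2.86 and -0.01. Seen from the other side, 84 of the 110 genes called higher on day 2 in R10 (110 of 15402, 0.714%) could be tested before induction. This list comes from the same lines in the same chemistry, so line or library differences that persist to day 2 enter it too. In R10 their median difference before induction was 1.09, with 44 at least 1 higher (52.4%, against 6.27% of all genes) and 35 called higher (1.43% of all genes). In R9 it was -0.03 with 4 at least 1 higher (4.76%, against 3.39% of all genes). In both chemistries 2 of the 84 were at least 1 higher before induction. By that measure, upward only and with overlap allowed, 60 of all 13647 genes (0.44%) were, which are not the same 60 as above. Genes at least 3 higher with factors on day 2 in R9, and above a CPM minimum in both day-2 carriers, formed another list. It rests on the lone R9 day-2 wild type, and 87 of its genes could be tested before induction. Their R10 median was 0.04, with 4 at least 1 higher (4.60%, against 6.27% of all genes) and 0 called. Their R9 median was -0.27, with 2 at least 1 higher (2.30%, against 3.39%).

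OKMS and OKS progenitors were the closest pair in R10, at a distance of 0.290. In R9 they lay 0.559 apart, with 646 of 8960 genes at least 1 apart, which is farther than OKMS lay from wild type 2. Limma called 0 of 13647 genes (0%) between them over both chemistries, 314 had an unadjusted p under 0.05, and edgeR and DESeq2 called 0. The smallest p belonged to Gm21811, at 29.6 and 36.5 CPM in OKMS against 6.75 and 15.2 CPM in OKS, and the next to Fos. Klf4 and Pou5f1 differed by -0.13 ± 0.63 and -0.61 ± 0.85, so with 2 libraries each a difference of 1 in these scarce genes was within the error.

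Transcripts gave no further difference that held. Of 43676 transcripts tested as log2(TPM + 1) (transcript levels scaled for length and library total), 0 (0%) were called, 2482 had an unadjusted p under 0.05, and the smallest adjusted p was 0.346. Those at least 1 apart in the same direction without overlap in both chemistries numbered 657 (1.5%), beside 559 in opposite directions (1.28%). Many with the smallest p-values were at 0 in every library of a group, so they passed the filter on low values only through the other group. Transcripts of Fam133b and Cox8a were at 0 in all carriers, and a transcript of Psmg4 in all wild types. An example from the 657 is a short fragment of Rpl32, a ribosomal protein of the large subunit, of 144 bases. It was at 161 and 134 TPM in R9 wild type against 40.8 and 54.7 TPM in carriers, and at 26.5 and 27.1 TPM in R10 wild type against 6.43 and 8.52 TPM. The gene as a whole differed by 0.02 in R9 and -0.06 in R10.

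Shares of a gene's TPM were tested for 34805 transcripts of 5559 genes, and 0 (0%) passed, with 1907 at an unadjusted p under 0.05 and a smallest adjusted p of 0.879. A shift of at least 20 points in the same direction without overlap was seen for 44 transcripts (0.126%). Before the overlap rule, 74 shifted by 20 points in the same direction and 49 in opposite directions. One of them was an unannotated 2-exon form of Ccng1, the p53 target cyclin G1. It held 48.5% and 39.7% of the gene in R9 wild type against 65.2% and 63.7% in carriers, and 12.5% and 13.7% in R10 wild type against 46.3% and 46.4%. Sumo3, a ubiquitin-like modifier, had a transcript at 42.8% and 39.4% in R9 wild type against 58.2% and 66.2%, and at 24.2% and 36.3% in R10 wild type against 54.4% and 47.9%. These were picked after their values were seen and neither passed over all transcripts.

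Differences along chromosomes were looked for as marks of a line. No autosome had a carrier median at least 0.1 away from the other genes in the same direction in both chemistries. Chromosome Y met that rule over the 3 of its genes with a mean of at least 10 CPM, at 0.41 in R9 and 0.33 in R10 against -0.01 and 0.03 for the rest, and not over all 8 of its tested genes. On day 2 the R10 wild types 3 and 2 differed on it by -1.64 over the 3 genes. Chromosome 8 differed between wild-type libraries. Over 737 genes its median was 0.28 higher in R9 wild type 2 than in wild type 1 (0.08 for other genes) and 0.26 higher in R10 wild type 3 than in wild type 2 (-0.09 for other genes). The shift was alike in 3 parts of the chromosome, at 0.21, 0.28 and 0.32 in R9 and 0.26, 0.25 and 0.26 in R10. The carriers lay with 1 wild type of each chemistry. In R10 they were 0.28 and 0.29 above wild type 2 and 0.01 and 0.02 above wild type 3, and in R9 0.15 and 0.17 above wild type 1 and -0.08 and -0.08 from wild type 2. On day 2 the R10 wild types 3 and 2 again differed by 0.25. The wild-type libraries of a chemistry were thus not alike along this chromosome, and DNA copy number was not measured.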

How the data were processed

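The authors deposited gene values in CPM and transcript values in TPM for 45 mouse libraries. Reads were aligned with minimap2 2.24-r1122 to mm10, per the submitters' processing notes. The deposited gene and transcript values are named for IsoQuant, whose version and strand use are not given in the sources used here. The deposited CPM values came out as whole multiples of 1 read for 100% of values (within 0.02 reads), and those recovered reads served edgeR 4.0.16 and DESeq2 1.42.0 as alternatives. The tables also held 13 columns that were not used.

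Genes were tested with limma 3.58.1 (R 4.3.3, trend) on log2(CPM + 1) if at least 1 CPM in 2 libraries of a chemistry, or 4 libraries jointly; transcripts on log2(TPM + 1). Differences are on that scale and understate changes of low genes. The joint fit had chemistry as a term. A call needed a Benjamini-Hochberg adjusted p under 0.05 and a difference of at least 1, and "seen in both" the joint call plus a difference of 1 in the same direction, with no overlap, in each chemistry. Scripts were tested on simulated data. The rule named 6 fixed genes, then the 12 highest and 12 lowest annotated genes seen in both, list members called jointly and the leading transcripts; none beyond the 6 met it, so the other genes were named after their values were seen. The members and the 21 gene lists were chosen with earlier results of these data known. GC content came from GENCODE M21 (GRCm38). The GC correction and the leave-one-out and count-test versions of the interaction were chosen after seeing the data.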

Additional observations from a re-analysis of the deposited data

Results flagged for a closer look

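The difference between carriers and wild type depended on the chemistry for 27 of 13647 genes, by limma's interaction test at an adjusted p under 0.05. Written as the R10 difference minus the R9 difference on the log2(CPM + 1) scale, the mitochondrial genes had 4.16 for mt-Co1, 4.14 for mt-Nd5, 3.49 for mt-Cytb, 3.13 for mt-Rnr2 and 2.79 for mt-Nd6. The nuclear genes had 2.71 for Smarca5, 2.64 for Dpy19l1, 2.52 for Dhx36, 2.12 for Ssr3, 2.10 for Hes1 and 1.99 for Top2b. Actg1 had -2.27, the only one of these with the lower value in R10. The cause was not tested.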

How the results depend on the processing

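Counts of calls moved by more than 1.5 times under 25 of the settings tried and stayed within it under 88, and the cause was not tested except where stated. In R9, 0 calls became 1 with no filter on low values and 3 by edgeR, and leaving out 1 library gave 1 to 63. In R10, 212 calls became 39 with quantile normalization and 105 with the GC trend removed, a fit without the genes that lack a GC value (174 of the 200 higher and 11 of the 12 lower calls had one), and leaving out 1 library gave 134 to 573. In the joint fit, 0 calls became 2 by edgeR and 14 by DESeq2, and 0 to 37 without 1 library. Differences seen in both chemistries numbered 2 by edgeR, 7 by DESeq2 and 0 to 15 without 1 library. The interaction count of 27 became 44 by edgeR, 60 by DESeq2 and 10 to 43 without 1 library. Of the day-2 genes, 2 were higher in both chemistries before induction with the R10 list and 0 with the R9 list. The joint difference of Pou5f1 turned to -0.18 without R10 wild type 3 and to -0.03 without R10 OKMS, and leaving out 1 library gave -0.18 to 0.82. Calls between OKMS and OKS, and of transcripts and transcript shares, stayed at 0 without any 1 library. No paired analysis was possible because carriers and wild type share fewer than 2 replicate numbers within a chemistry. Median centring and another pseudocount were not run for shares. In R9 the depth leaves scarce genes such as Pou5f1 at 0 to 4 reads, so a leak of a few CPM was not detectable there.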
